A study of Mus musculus with 6 samples.

Results

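The troponin complex was examined in tibialis anterior (TA) muscle of aged mice through 7 genes, Tnnt1, Tnni1 and Tnnc1 (slow subunits), Tnnt3, Tnni2 and Tnnc2 (fast subunits) and Tnnt2 (the cardiac T subunit). The genes were picked by their symbols from the TPM tables and joined by gene identifier to the count table, where they are 7 of 45777 genes. All 7 passed the filter on low counts. RNA came from the TA of male C57BL/6J mice labelled 24 months old, 3 treated with vehicle and 3 with BML-260, a compound used by the study as an inhibitor of the phosphatase DUSP22. The vehicle contained DMSO and a Tween detergent, and BML-260 was injected at 5 mg/kg for 1 month. All 6 mice shared strain, sex and labelled age, and the comparison holds no young mice, so a change with age itself was not measured here. The study's own text is not uniform on the age: its methods give a range that starts at the labelled age, and its results give an older one. Each library is 1 labelled mouse sample, and TPM is a transcript level scaled for transcript length and library total.

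Troponin sits on the thin filament of the sarcomere as 3 subunits. Troponin T anchors the complex to tropomyosin, troponin I holds back the actin-myosin interaction, and troponin C binds the calcium that relieves this block. Slow (type I) and fast (type II) fibers use different genes for each subunit, so the balance of slow and fast troponin transcripts is a common readout of fiber type alongside the myosin heavy chains. The TA is a fast muscle with few slow fibers in mice, and aging, disuse and denervation are known to shift fiber type. Tnnt2 encodes the T subunit of the heart and is also transcribed in embryonic and regenerating skeletal muscle.

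The libraries held between 39522890 and 56998875 counts. Skeletal muscle genes were abundant in each of them: the markers Ckm, Acta1, Ttn, Des and Myh4 summed to between 42873 and 56274 TPM with vehicle and between 50047 and 66495 TPM with BML-260. Vehicle 3 stood apart from the other 5 libraries. It had the largest TMM factor (1.203, against 0.914 to 1.02 in the rest), and 31.3% of the 16188 tested genes had their highest level there. It also had the highest summed TPM of the marker lists for neutrophils (797, against 6.60 to 163 elsewhere), macrophages (123, against 25.3 to 39.8), adipocytes (26.4, against 1.75 to 3.37), Schwann cells (56.5, against 9.17 to 17.8) and erythroid cells (5866, against 1089.5 to 1445). Within these lists all 5 macrophage markers, both neutrophil markers, and all 3 markers of each of the other types were highest in Vehicle 3. Its summed TPM was also the highest for smooth muscle (71.7, against 27.3 to 40.5 elsewhere), fibroblast (745, against 245 to 537) and endothelial markers (65.0, against 44.8 to 59.1). Of these, 4 of 4 smooth muscle, 3 of 4 fibroblast and 1 of 4 endothelial markers were highest there. The muscle fiber sum was lowest in Vehicle 3 (42873 TPM, against 49513 to 66495), and the satellite cell sum was neither highest nor lowest. The muscle fiber markers were mixed: in TPM Ckm and Myh4 were lowest in Vehicle 3, and Acta1 was neither highest nor lowest. Des was highest there (2170 TPM, against 978 to 1239 elsewhere), and so, narrowly, was Ttn (1864 TPM, against 1092 to 1860). Immune markers also differed between the groups without Vehicle 3: both neutrophil markers (median log2 fold change of BML-260 over vehicle -3.47) and 4 of the 5 macrophage markers (median of the 5 -0.61) were lower with BML-260 at an unadjusted p under 0.05 (edgeR), and none of these genes had an adjusted p under 0.05. At that unadjusted threshold 3.12% of the 16502 genes tested without Vehicle 3 were lower. The part of these markers in the troponin values was not tested, and the results are given with and without Vehicle 3.

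The troponin RNA of this TA was almost wholly of the fast form. Fast troponin genes ranked between 5 and 17 among the 16800 genes with a TPM value in every library, whereas the slow genes ranked between 1977 and 10533. The 7 genes together made up 4.22% to 5.12% of all TPM, with means of 4.74 ± 0.471% under vehicle and 4.75 ± 0.264% under BML-260 (SD, n = 3 each). In TPM the order Tnnt3, Tnni2, Tnnc2 held in each of the 6 libraries. The slow genes had no fixed order among themselves, and their differences were within the spread between libraries. Troponin T RNA exceeded troponin C RNA by 1.5 to 1.74 times in 5 libraries and by 2.40 times in Vehicle 3.

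**Figure D1:**
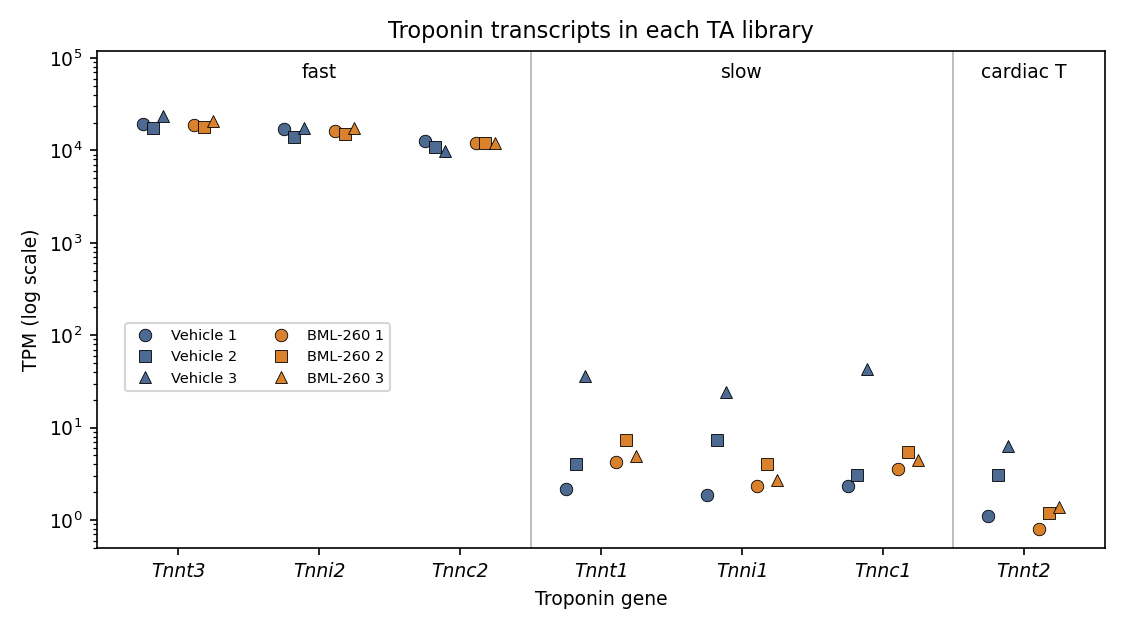
TPM of the 7 troponin genes (log axis) in each library, with vehicle in blue and BML-260 in orange and a marker shape for each replicate number. The fast genes lie between 9819 and 23582 TPM in all libraries, the slow genes and Tnnt2 lie between 0.795 and 42.8 TPM, and Vehicle 3 is the highest library for each of these 4 low genes.

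Among the troponin T genes, Tnnt3 (gene identifier 21957, fast), which is mutated in forms of distal arthrogryposis, had 19443, 17308 and 23582 TPM in Vehicle 1, 2 and 3 and 18708, 17920 and 20888 TPM in BML-260 1, 2 and 3. The groups overlapped, and their means were 20111 ± 3190 and 19172 ± 1538 TPM (SD, n = 3 each). On the counts, the log2 fold change of Tnnt3 (BML-260 over vehicle, used throughout) was 0.09 with a standard error of 0.267 (adjusted p = 0.935 from the edgeR quasi-likelihood test, adjusted by Benjamini-Hochberg). With limma on log2 TPM the value for Tnnt3 was -0.060, in fits where the median of all genes was itself -0.09 (pseudocount 1) or -0.14 (pseudocount 0.1), against -0.0039 on the counts, so Tnnt3 lay above the median of all genes on both scales. Vehicle 3 is the highest library in TPM but the lowest by CPM (counts scaled to library size) after TMM scaling, at 10523 CPM. Tnnt3 overlaps the gene Prr33 in the RefSeq annotation, and the sources used here do not state how reads of overlapping genes were counted.

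Tnnt1 (21955, slow), the gene behind a severe nemaline myopathy, had 2.17, 3.99 and 36.6 TPM in Vehicle 1, 2 and 3, which rest on 70, 109 and 1114 counts. With BML-260 it had 4.23, 7.38 and 4.97 TPM, from 164, 218 and 123 counts. A single vehicle library was therefore far above all others, and the remaining vehicle libraries were the lowest of the 6. The log2 fold change of Tnnt1 was -1.03 with a standard error of 0.777 (unadjusted p = 0.219, adjusted p = 0.789, edgeR with Benjamini-Hochberg adjustment). Without Vehicle 3 it was 0.74 with a standard error of 0.326 (unadjusted p = 0.0457, adjusted p = 1.00 by the same edgeR test). The direction of Tnnt1 thus turned on 1 library.

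Among the troponin I genes, Tnni2 (21953, fast) had 16881, 13892 and 17667 TPM with vehicle and 16321, 15164 and 17413 TPM with BML-260. In TPM the BML-260 range lay inside the vehicle range. By CPM after TMM scaling, Vehicle 3 was the lowest library (5564 CPM) and BML-260 1 the highest (7878 CPM), and the groups overlapped. The log2 fold change of Tnni2 was 0.17 with a standard error of 0.256 (adjusted p = 0.869, edgeR with Benjamini-Hochberg adjustment). Tnni1 (21952, slow), which is also the troponin I of the embryonic heart, had 1.88, 7.27 and 24.1 TPM in Vehicle 1, 2 and 3, from 62, 186 and 731 counts. With BML-260 it had 2.36, 4.04 and 2.71 TPM, from 93, 121 and 68 counts. Unlike Tnnt1, it was high in both Vehicle 2 and Vehicle 3, while Vehicle 1 was the lowest library of all. Its log2 fold change was -1.57 with a standard error of 0.646 (unadjusted p = 0.0399, adjusted p = 0.788, edgeR with Benjamini-Hochberg adjustment). Without Vehicle 3 it was -0.63 with a standard error of 0.455 (unadjusted p = 0.195, edgeR), so that the sign held and the unadjusted p did not stay under 0.05.

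Among the troponin C genes, Tnnc2 (21925, fast) had 12664, 10936 and 9819 TPM with vehicle and 12164, 11981 and 12002 TPM with BML-260. In TPM the BML-260 libraries were close together and inside the vehicle range. By CPM after TMM scaling, BML-260 1 (5620 CPM) was above all vehicle libraries (at most 5346 CPM). The log2 fold change of Tnnc2 was 0.23 with a standard error of 0.286 (adjusted p = 0.841, edgeR with Benjamini-Hochberg adjustment), and 0.02 without Vehicle 3, the library with the lowest value. Tnnc1 (21924), the troponin C of slow fibers and of the heart, had 2.36, 3.04 and 42.8 TPM in Vehicle 1, 2 and 3, from 51, 52 and 843 counts. With BML-260 it had 3.58, 5.47 and 4.47 TPM, from 93, 109 and 73 counts. The pattern was that of Tnnt1, with 1 vehicle library above and the others below all BML-260 libraries. Its log2 fold change was -1.43 with a standard error of 0.855 (unadjusted p = 0.132, adjusted p = 0.788, edgeR with Benjamini-Hochberg adjustment), and without Vehicle 3 it was 0.69 with a standard error of 0.299 (unadjusted p = 0.0405, adjusted p = 1.00, same edgeR test). The smallest count, 51 in Vehicle 1, has an exact 95% Poisson interval of 38.0 to 67.1, which covers counting error only.

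Tnnt2 (21956, cardiac T subunit) had 1.12, 3.07 and 6.40 TPM in Vehicle 1, 2 and 3, from 45, 87 and 212 counts. With BML-260 it had 0.795, 1.18 and 1.39 TPM, from 37, 43 and 40 counts. Vehicle 1 lay within the range of the BML-260 libraries, and Vehicle 2 and 3 lay above it. Of the 7 genes Tnnt2 had the smallest p, with a log2 fold change of -1.34 and a standard error of 0.466 (unadjusted p = 0.0197, adjusted p = 0.782, edgeR with Benjamini-Hochberg adjustment). Without Vehicle 3 the value was -0.89 with a standard error of 0.422 (unadjusted p = 0.0587, edgeR). Tnnt2 contributed between 0.00425% and 0.0271% of all troponin T RNA. The 5 listed cardiac markers were low. The atrial light chain gene Myl7 had no counts in any library. Tnni3 (cardiac troponin I) had between 0 and 8 counts and Nppa between 0 and 12, and neither was tested. Myh6 and Ryr2, the 2 of 5 cardiac markers with a TPM value, summed to between 0.244 and 1.95 TPM with vehicle and between 0.327 and 0.762 TPM with BML-260. The top of that range was again Vehicle 3. This does not hold for all genes of the heart: Actc1 and Myl2, outside that list, had 3.61 to 79.4 and 2.89 to 423 TPM.

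After adjustment over the 16188 tested genes, 0 of the 7 troponin genes and 0 genes in all (0%) passed an adjusted p of 0.05 with edgeR, beside 966 genes with an unadjusted p under 0.05. At that unadjusted threshold 2 of the 7 (Tnni1 and Tnnt2) were lower with BML-260, where 4.95% of all tested genes were, and 0 of the 7 were higher, where 1.02% were. The libraries of the groups overlapped for all 7 genes, and 12.1% of tested genes had groups that did not overlap. That share is too small for 0 of 7 to set the troponin genes apart. With Vehicle 3 left out, Tnnt1 and Tnnc1 were higher with BML-260 at an unadjusted p under 0.05 (1.27% of 16502 genes), and their groups no longer overlapped (18% of the 16188 genes). With DESeq2's Wald test, which gave 84 genes an adjusted p under 0.05, the adjusted p was 0.344 for Tnni1 and 0.401 for Tnnt2, and Tnnc1 received no p. In bulk RNA, fewer slow fibers and less slow troponin RNA per fiber cannot be told apart.

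**Figure D2:**
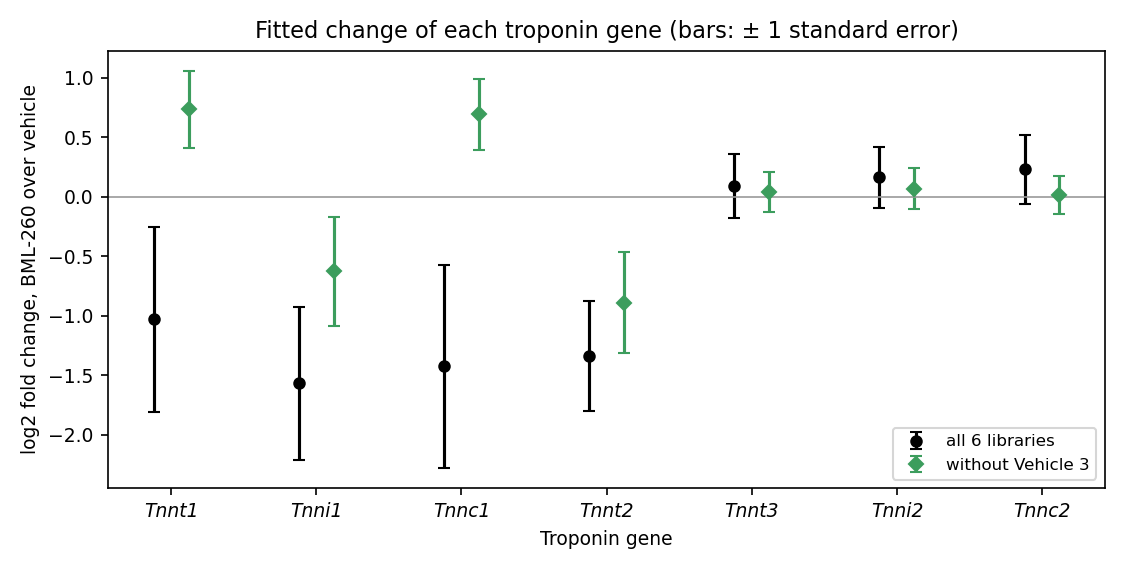
Log2 fold change of each troponin gene, BML-260 over vehicle, from edgeR with all 6 libraries (black circles) and without Vehicle 3 (green diamonds), with bars of 1 standard error. Tnnt1 and Tnnc1 move from -1.03 and -1.43 to 0.74 and 0.69, Tnni1 and Tnnt2 stay below 0, and the fast genes stay between 0.02 and 0.23.

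The ratio of the slow to the fast gene of each subunit, a readout within 1 library that needs no scaling between libraries, asks whether the fiber-type balance of the complex differed between the groups. For troponin T, Tnnt1 was 0.0112%, 0.0231% and 0.155% of Tnnt3 TPM in Vehicle 1, 2 and 3 and 0.0226%, 0.0412% and 0.0238% in BML-260 1, 2 and 3. The difference of mean log2 ratios was -0.28 (exact permutation test, 2-sided, p = 0.9). For troponin I, Tnni1 was 0.0111%, 0.0523% and 0.136% of Tnni2 with vehicle and 0.0145%, 0.0266% and 0.0156% with BML-260, a log2 difference of -1.24 (exact permutation test, 2-sided, p = 0.4). For troponin C, Tnnc1 was 0.0186%, 0.0278% and 0.436% of Tnnc2 with vehicle and 0.0295%, 0.0457% and 0.0372% with BML-260, a log2 difference of -0.72 (exact permutation test, 2-sided, p = 1). The 3 p-values were all 1 after Benjamini-Hochberg adjustment over the 3 ratios, and 0.1 is the smallest p that 3 libraries against 3 allow. The vehicle ratios spread widely, by 13.9-fold for T, 12.3-fold for I and 23.4-fold for C between Vehicle 1 and Vehicle 3, and in each case the BML-260 libraries lay inside that range. Without Vehicle 3 the log2 differences were 0.81 for T, -0.41 for I and 0.70 for C (exact permutation tests, 2-sided, p = 0.4, 0.8 and 0.2). The T and C ratios then pointed the other way, and the I ratio did not. The p of the C ratio is the smallest that 2 libraries against 3 allow. In that ratio Vehicle 1 and 2 lay below all BML-260 libraries.

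**Figure D3:**
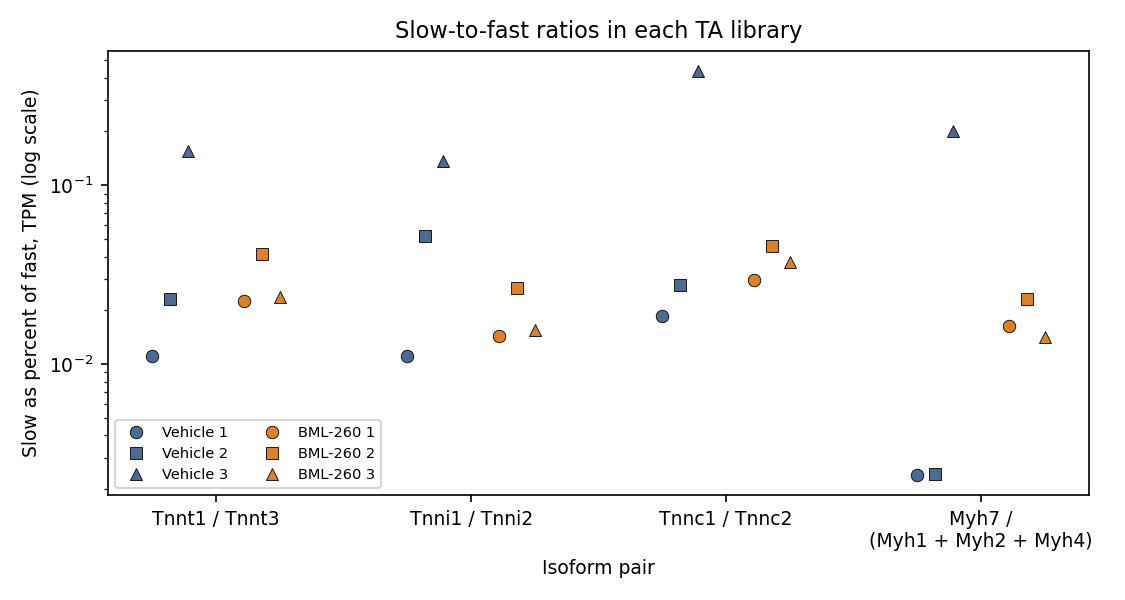
Slow gene as a percent of its fast counterpart in TPM (log axis) for troponin T, I and C and for the myosin heavy chains, by library, with vehicle in blue and BML-260 in orange. Vehicle 3 is the highest library in all 4 ratios, at 0.136% to 0.436%, and Vehicle 1 is the lowest.

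In the slow-to-fast ratio of the myosin heavy chains, as in that of troponin C, Vehicle 3 was far above and the other vehicle libraries below all BML-260 libraries. Vehicle 2 lay within the BML-260 range for the T ratio and above it for the I ratio. Myh7, the slow myosin, was 0.00240%, 0.00244% and 0.202% of the summed fast myosins Myh1, Myh2 and Myh4 in Vehicle 1, 2 and 3, and 0.0164%, 0.0230% and 0.0142% with BML-260. In TPM Myh7 had 0.278, 0.355 and 25.4 with vehicle and 1.96, 3.42 and 2.38 with BML-260. The difference of mean log2 ratios was 0.73 (exact permutation test, 2-sided, p = 1), opposite in sign to those of T, I and C, and 2.85 without Vehicle 3 (exact permutation test, 2-sided, p = 0.2, the smallest that 2 against 3 libraries allow). Its log2 fold change was -1.28 with a standard error of 1.26 (adjusted p = 0.811, edgeR with Benjamini-Hochberg adjustment). Without Vehicle 3 it was 2.92 (adjusted p = 0.00232, edgeR with Benjamini-Hochberg adjustment), 1 of 6 genes (0.0364%) with an adjusted p under 0.05 in that comparison of 2 against 3 libraries. The fast myosins Myh4, Myh1 and Myh2 had log2 fold changes of 0.48, -0.18 and -0.25 (adjusted p = 0.796, 0.889 and 0.881, edgeR with Benjamini-Hochberg adjustment). Of these, Myh2, the myosin of type IIA fibers, was highest in Vehicle 3, at 1207 TPM against 266 to 505 TPM elsewhere.

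Tnnt1 and Tnnc1 followed each other across the 6 libraries (Pearson r = 0.979 on log2 CPM), although they lie on chromosomes 7 and 14. Both have Vehicle 3 as an extreme point, so this r only describes these libraries. Their start regions are shown because these genes had the same order of groups, from 250 bases before to 50 bases after the RefSeq start (GRCm38.p6, the build called mm10 in the submitters' notes). Tnnt1 covers chr7:4515926-4516225 on the minus strand and Tnnc1 chr14:31208062-31208361 on the plus strand. Capitals mark matches on either strand. One motif is CANNTG, the E-box bound by myogenic helix-loop-helix factors. Another is CATTCC, the M-CAT box bound by TEAD factors. The last is TATAAA, a form of the basal promoter box.
Tnnt1: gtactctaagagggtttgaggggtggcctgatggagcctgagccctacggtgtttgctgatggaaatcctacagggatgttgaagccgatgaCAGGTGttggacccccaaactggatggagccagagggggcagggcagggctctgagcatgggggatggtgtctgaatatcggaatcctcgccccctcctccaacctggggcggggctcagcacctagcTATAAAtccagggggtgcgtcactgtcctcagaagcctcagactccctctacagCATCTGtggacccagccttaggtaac
Tnnc1: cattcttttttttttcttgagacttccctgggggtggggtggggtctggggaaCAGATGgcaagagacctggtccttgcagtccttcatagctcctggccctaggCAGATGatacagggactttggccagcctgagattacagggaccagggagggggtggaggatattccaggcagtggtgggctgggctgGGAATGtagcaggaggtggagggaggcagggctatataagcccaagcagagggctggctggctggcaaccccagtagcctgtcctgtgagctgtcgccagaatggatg
Each window held 2 E-boxes. Of 32851 promoter windows of that length 72.3% hold at least 1 and 39.6% at least 2. The basal box of Tnnt1 starts 30 bases before the transcript start (13.6% of windows hold one), and the M-CAT match of Tnnc1 starts 58 bases before it (14.7% of windows). The MEF2 and CArG motifs, searched by name on both strands and present in 3.19% and 1.63% of windows, had no match in the windows of the 5 troponin genes that the promoter table lists. A match is a description of letters and not evidence of binding.

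Tnni1 followed Tnnt2 (r = 0.932 on log2 CPM) more closely than it followed Tnnt1 (0.859) or Tnnc1 (0.819). Tnni1 and Tnnt2 are neighbours on chromosome 1, 25.3 kb apart with Lad1 between them, and they share the pattern of high values in Vehicle 2 and Vehicle 3. All 4 genes have their highest level in Vehicle 3, so these r values only describe these libraries. Some other genes were closer still to Tnnt2, such as Ppp1r12a (r = 0.992). As a ratio within a library, Tnni1 was 0.865, 1.82 and 0.657 times Tnnt1 in TPM with vehicle and 0.557, 0.547 and 0.545 times with BML-260, with its highest value in Vehicle 2 and no overlap between the groups (exact permutation test, 2-sided, p = 0.1, the smallest this design allows). Its values were known when this ratio was chosen. The ratio of Tnnc1 to Tnnt1 had overlapping groups, between 0.762 and 1.17 with vehicle and between 0.742 and 0.899 with BML-260. The listed start regions of the neighbouring pair lie at chr1:135799171-135799470 (Tnni1, the first of 2 listed) and chr1:135836084-135836383 (Tnnt2, the first of 2 listed), both on the plus strand, with the same motifs in capitals. Neither window is set on the RefSeq gene start. That of Tnni1 (135783033) lies outside its window, which is inside the gene, and that of Tnnt2 (135836315) lies within its window.
Tnni1: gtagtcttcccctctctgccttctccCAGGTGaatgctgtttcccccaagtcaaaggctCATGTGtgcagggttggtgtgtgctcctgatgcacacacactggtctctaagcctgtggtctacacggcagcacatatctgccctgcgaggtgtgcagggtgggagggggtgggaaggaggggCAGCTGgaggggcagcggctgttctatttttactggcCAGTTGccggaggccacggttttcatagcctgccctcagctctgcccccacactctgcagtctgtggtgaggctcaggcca
Tnnt2: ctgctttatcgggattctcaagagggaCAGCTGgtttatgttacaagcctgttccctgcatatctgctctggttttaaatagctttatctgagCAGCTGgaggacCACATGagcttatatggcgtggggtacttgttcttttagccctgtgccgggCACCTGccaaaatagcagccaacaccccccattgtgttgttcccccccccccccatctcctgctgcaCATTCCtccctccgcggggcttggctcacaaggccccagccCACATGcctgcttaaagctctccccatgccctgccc
These windows held 4 and 5 E-boxes (6.49% of windows hold at least 4 and 2.1% at least 5), and that of Tnnt2 also held 1 M-CAT match, which starts 27 bases before the start site on which the window is set. The second listed window of each gene held 2 E-boxes and no M-CAT match. For comparison, the fast gene Tnnc2 (chr2:164779685-164779984, minus strand), which exceeded Tnnc1 in TPM by between 229 and 5376 times, held 2 E-boxes and no other match.
Tnnc2: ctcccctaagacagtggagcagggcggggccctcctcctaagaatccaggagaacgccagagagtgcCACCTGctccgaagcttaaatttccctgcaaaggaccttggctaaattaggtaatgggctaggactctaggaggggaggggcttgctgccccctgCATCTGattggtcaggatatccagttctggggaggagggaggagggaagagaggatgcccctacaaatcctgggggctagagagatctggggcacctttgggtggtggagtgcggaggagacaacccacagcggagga
Tnnt3 and Tnni2, neighbours on chromosome 7 that lie 54.4 kb apart with Lsp1 between them, are not in the promoter table.

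Sequence shared between transcripts of the troponin genes was searched as exact runs. Such a search cannot settle whether reads of 1 gene were assigned to another, because inexact matches were not searched and the counting rules are not given. Among GENCODE M21 transcripts the longest run shared by the slow and fast gene was 16 bases for T, 22 bases for I and 21 bases for C, and these pairs shared 0 words of 31 bases. Tnni1 and Tnnt2 shared a run of 53 bases and 2 distinct words of 31 bases, of 3624 in Tnni1 and 7988 in Tnnt2. A run of that length with so few distinct words is a simple repeat of a short unit. No other pair among the 7 genes shared a word of that length.

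The other genes of the thin filament (actins, tropomyosins, nebulin, tropomodulins, leiomodins and the Kelch proteins that stabilize them) had a median log2 fold change of 0.08, beside -0.0039 over all tested genes. Of the 12 genes, 9 had a positive and 3 a negative value, and at an unadjusted p under 0.05 there were 0 higher (1.02% of all tested genes) and 1 lower (4.95% of all), Lmod2 (-1.29, adjusted p = 0.788, edgeR with Benjamini-Hochberg adjustment), which encodes an actin filament nucleator. Lmod2 had 51.9, 83.2 and 379 TPM with vehicle and 34.0, 71.7 and 63.3 TPM with BML-260. It was highest in Vehicle 3. On log2 TPM (pseudocount 0.1) the list was split 5 positive to 7 negative, with a median of -0.02, where the median of all genes was -0.14.

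Of the 10 slow-fiber genes outside the troponin family, 2 had a positive and 8 a negative log2 fold change, with a median of -0.80 (4 and 6, with a median of -0.25, on log2 TPM with a pseudocount of 0.1). The 2 with an unadjusted p under 0.05, both lower (4.95% of all tested genes), were Atp2a2 (-0.96), the slow-fiber calcium pump, and Myoz2 (-2.09), a calcineurin-binding Z-disc protein (adjusted p = 0.788 for both, edgeR with Benjamini-Hochberg adjustment). Vehicle 3 was the highest library for 8 of the 10. Without it the median was 0.47, 8 genes were positive and 2 negative, and 3 were higher at an unadjusted p under 0.05 (1.27% of all genes), namely Myh7 (2.92), its relative Myh7b (0.86) and Myl2 (3.11), the slow and cardiac regulatory light chain. Atp2a2 alone was lower at that threshold (-0.38), where 3.12% of all genes were. Myl2 had 2.89, 3.59 and 423 TPM with vehicle and 11.6, 46.7 and 30.99 TPM with BML-260, an order of groups like that of Myh7. The 12 fast-fiber genes outside the family had a median of 0.35, with 10 positive and 2 negative and 0 at an unadjusted p under 0.05. The most abundant of them were Mylpf (log2 fold change 0.23), Tpm1 (0.36) and Myl1 (0.30). Without Vehicle 3 their median was 0.14, with 9 positive and 3 negative.

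Of 12 regulators of fiber type, 10 had a positive and 2 a negative log2 fold change (median 0.22; 8 and 4 on log2 TPM, median 0.08), and 1, the cofactor gene Vgll2, was lower at an unadjusted p under 0.05, as were 4.95% of all tested genes (-0.50, adjusted p = 0.788, edgeR with Benjamini-Hochberg adjustment). It had 14.7, 20.2 and 33.2 TPM with vehicle and 13.0, 13.2 and 15.9 TPM with BML-260, so that Vehicle 2 and 3 were above all other libraries, as for Tnnt2.

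Genes of developing, regenerating or denervated muscle were mostly lower with BML-260 in their fitted values. Of 11, 9 were tested, and 8 had a negative log2 fold change and 1 a positive one, with a median of -1.50 (6 and 2, with a median of -1.37, on log2 TPM with a pseudocount of 0.1). At an unadjusted p under 0.05, 5 were lower, where 4.95% of all tested genes were: Myh3 (-1.66, embryonic myosin), Myog (-1.91, myogenin), Chrna1 (-1.50, an acetylcholine receptor subunit), Ncam1 (-1.34, an adhesion molecule of denervated fibers) and Runx1 (-2.57, a transcription factor induced by denervation). The adjusted p of these 5 genes lay between 0.553 and 0.699 (edgeR with Benjamini-Hochberg adjustment). Without Vehicle 3 all 5 were still lower at an unadjusted p under 0.05 (3.12% of all genes), and the median was -1.22. Runx1 had 3.26, 10.2 and 11.1 TPM in Vehicle 1, 2 and 3 and 1.17, 0.979 and 1.39 TPM with BML-260, and Chrna1 had 5.28, 13.1 and 12.4 TPM with vehicle and 2.76, 3.39 and 3.66 TPM with BML-260. In both, Vehicle 2 and 3 were the highest libraries, as for Tnni1 and Tnnt2, and Vehicle 1 was also above all BML-260 libraries, which it was not for Tnni1 or Tnnt2.

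**Figure D4:**
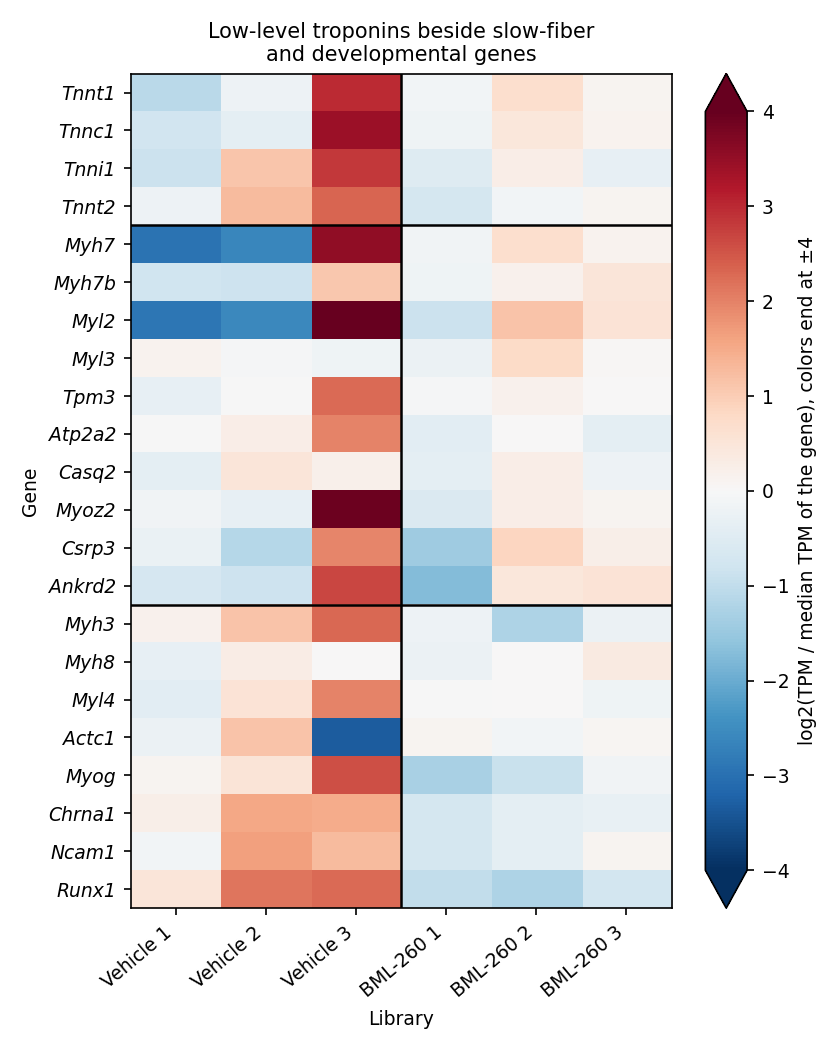
Log2 of TPM over the gene's median TPM across the 6 libraries, for the 4 low-level troponins (top), slow-fiber genes (middle) and developmental, regeneration and denervation genes with a TPM value (bottom). Tnnt1 and Tnnc1 are high in Vehicle 3 alone (2.99 and 3.41), Tnni1 and Tnnt2 are also raised in Vehicle 2 (1.11 and 1.26), and Runx1 is high in both (2.14 in Vehicle 2 and 2.25 in Vehicle 3).

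Across 5124 genes with a curated name and a mean of at least 10 TPM, the genes most like the mean of the slow troponins over the 6 libraries, on log2 CPM after TMM scaling, were Gzf1 (Pearson r = 0.997), Snhg12 (0.992) and Gstm1 (0.989). Those most like the fast mean were Aldoa (0.999), the muscle aldolase of glycolysis, Pkdcc (0.996) and Tmem63b (0.996), and those most like Tnnt2 were Ppp1r12a (0.992), Hnrnpu (0.992) and Ncl (0.988). For the slow mean and Tnnt2 the resemblance was dominated by Vehicle 3, in which each of these 6 genes had its highest TPM, such as 28.8 TPM for Gzf1 against 11.8 to 14.7 TPM elsewhere. The likeness to the fast mean is given on that scale. In TPM the fast troponins summed to their highest value in Vehicle 3 (51068 TPM), where Pkdcc had its lowest (27.7 TPM). With 6 libraries and 5124 genes compared, values of this size describe the libraries only.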

How the data were processed

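RNA was sequenced from 6 TA muscles by total RNA libraries (TruSeq Stranded Total RNA Gold kit). Per the submitters' processing notes, the authors trimmed with Trimmomatic 0.38 and aligned to the mouse build mm10 with HISAT2 2.1.0, with Bowtie2 and StringTie also listed; how overlapping or multi-mapped reads were counted is not given in the sources used here. The authors deposited raw counts per gene in 1 table (45777 genes, unnormalized) and TPM per library (16800 genes, scaled by the authors for length and library total).

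Counts were fitted in R 4.3.3 with edgeR 4.0.16 (filterByExpr, 16188 genes; TMM; quasi-likelihood F-test; Benjamini-Hochberg adjustment), BML-260 against vehicle. The standard error is the log2 fold change divided by the square root of F. Ratios of TPM were compared on the log2 scale by exact permutation tests (SciPy 1.17.1). Alternatives used DESeq2 1.42.0, limma 3.58.1 and other scalings, filters and samples. Total counts set the depth (39522890 to 56998875); per the study's methods each group had 3 mice.

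The named genes were the 7 troponins, members of the lists with an unadjusted p under 0.05 (or the 3 most abundant where there were none), 4 myosin heavy chains, and the 3 genes most alike by Pearson r; Tnni3, Myl7, Myl2, Myh7b and other genes named beyond that rule were chosen after their values were seen. The values of the lists and of the myosin ratio without Vehicle 3, and those of the lists under other scalings, were added after seeing the data. One gene of the developmental list is not reported here, and its counts were made without it. The troponin genes, lists and tests were chosen with earlier results of these data known. Plots were made in Python 3.11.15 (matplotlib 3.10.9).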

Additional observations from a re-analysis of the deposited data

How the results depend on the processing

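With limma voom and sample quality weights the log2 fold change was 0.34 for Tnnt1 and 0.24 for Tnnc1, and without Vehicle 3 it was 0.74 and 0.69, against negative values with all libraries (-1.52 and -1.91 without Vehicle 1). That of Tnnt3 was -0.060 in both limma fits to log2 TPM (pseudocounts of 1 and 0.1), where the median of all genes was also negative, at -0.09 and -0.14. The other 4 troponin genes kept their sign under all 16 alternatives. None of the 7 had an adjusted p under 0.05 in any alternative that gave one (lowest 0.237, for Tnni1), and Tnnc1 received none with DESeq2. The count of genes with an adjusted p under 0.05 was 0 with edgeR, 84 with DESeq2's Wald test (25780 genes in the fit), and 1 each with no filter, with at least 10 counts in every library, with the robust fit and with voom; it ranged from 0 to 9 with 1 library left out. The count at an unadjusted p under 0.05 was 966, 597 with limma on log2(TPM + 1), and from 504 (without BML-260 2) to 2275 (without Vehicle 1) with 1 library left out. Leaving out 1 library, the log2 difference of the slow-to-fast ratio ranged from -1.09 to 0.81 for troponin T, from -2.22 to -0.41 for I and from -1.58 to 0.70 for C. Without Vehicle 3 the median of the slow-fiber list was 0.47 in place of -0.80, and those of the thin filament, fast-fiber, regulator and developmental lists kept their sign. On log2 TPM the median of the thin filament list was -0.017 with either pseudocount in place of 0.08, above the shifted median of all genes. The T and C ratios were positive without Vehicle 3 only (0.81 and 0.70). As ratios of group mean TPM, in which Vehicle 3 weighs most, the log2 differences were -1.30 for T, -1.88 for I and -1.95 for C. The causes of these shifts were not tested, beyond what each alternative leaves out.

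Same-numbered libraries deviated together with r = 0.162, 0.054 and 0.110, so that the numbers were not taken as pairs, although every library correlated best with the other group's library of its own number. With a replicate block, 1100 genes had an unadjusted p under 0.05 and 0 an adjusted one, the log2 fold changes were -0.22 for Tnnt1, -1.11 for Tnni1, -0.44 for Tnnc1 and -1.18 for Tnnt2, and the paired log2 ratio differences were unchanged at -0.28 for T, -1.24 for I and -0.72 for C (exact sign-flip tests, 2-sided, p = 1, 0.5 and 1). Counting error was largest for the slow genes and Tnnt2, whose lowest counts were 51 to 70 and 37 (14.0% at 51 counts and 16.4% at 37). For the fast genes it was at most 0.238%. The TPM of the slow genes and Tnnt2 spread far more than that between libraries, by 8.06- to 18.2-fold.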

Other observations

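Actc1, the cardiac actin gene that is also transcribed in developing skeletal muscle, was lowest in the library where the slow troponins were highest. It had 30.8, 79.4 and 3.61 TPM in Vehicle 1, 2 and 3 and 39.1, 34.0 and 38.8 TPM with BML-260, so that Vehicle 3, the library with the most Tnnc1 and Tnnt2, had the least Actc1 by far. Its log2 fold change was -0.04 with all libraries and -0.59 without Vehicle 3 (unadjusted p = 0.964 and 0.0824, edgeR's quasi-likelihood test). Pvalb, the calcium buffer of fast fibers, had 11885, 8214 and 2511 TPM with vehicle and 12193, 11156 and 11434 TPM with BML-260, with its lowest value in Vehicle 3, while fast troponin T and I were not low there in TPM. By CPM after TMM scaling, Vehicle 3 was the lowest library for Tnnt3 (10523 CPM) and Tnni2 (5564 CPM) as well. Actc1 and Pvalb were chosen after their values were seen.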
